A study of Mus musculus with 12 samples.

Results

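The genes described here act in adenosine handling and in cyclic AMP breakdown. They were chosen by symbol from the deposited table of gene read counts, which lists 16353 genes, and all 8 chosen symbols were found there: Adora2a, Nt5e, Entpd1, Ada, Pde3b, Pde4b, Pde4d and Pde7a. All 8 also passed the filter on low counts. The libraries were made from KB5 CD8 T cells, which carry a transgenic T cell receptor, taken from the spleens of CBA/J mice and sorted on that receptor and on CD8 to a stated purity of 95%. Inflamed cells came from mice given 10 M (mega) C57BL/6 splenocytes intravenously, 0.5 mg of anti-CD154 and 100 µg of lipopolysaccharide (LPS), the last 2 into the peritoneum. Tolerized cells were from mice that received splenocytes and antibody but no LPS, activated cells from mice given the splenocytes alone, and naive cells from untreated mice. Anti-CD154 blocks the ligand of CD40, and LPS is a bacterial product sensed by innate immune cells. Spleens of treated mice were taken at 12 h. Each of the 4 groups has 3 libraries, and the labels give no age, sex or number of mice and do not tie libraries to mice, and p-values therefore reflect only how far libraries differ.

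Extracellular ATP is cut to AMP by CD39, the product of Entpd1, and AMP is cut to adenosine by CD73, the product of Nt5e. Adenosine deaminase, the product of Ada, removes adenosine by turning it into inosine. Adora2a encodes an adenosine receptor, which couples to the stimulatory G protein, raises cyclic AMP in the cell and in T cells dampens signalling from the antigen receptor through protein kinase A. Phosphodiesterases end the signal by hydrolysing cyclic AMP. The enzymes of Pde4b, Pde4d and Pde7a are specific for cyclic AMP, and that of Pde3b also acts on cyclic GMP.

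Library totals ran from 29.3 to 84.5 M reads. The CD8 T cell markers were present in every library, with 7 of the 8 listed found in the table and a summed level of 3197 to 3453 CPM (counts per M reads) in inflamed, 2404 to 3033 in tolerized, 2112 to 3288 in activated and 4332 to 5373 CPM in naive libraries. RNA of other spleen cells was present too, most of it in naive libraries, and its levels are given beside the genes that moved with it. Levels below are CPM, and differences are log2 fold changes of CPM + 1 with their standard errors. A gene is called higher or lower where limma's p, adjusted by the Benjamini-Hochberg method over 12499 tested genes, was under 0.05.

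Upstream sequence is shown for the members whose RefSeq promoter window (build GRCm38.p6) is placed at the start site of the transcript that the deposited table names. Reads were counted per gene, so which start site the counted RNA came from is not known. Each window runs from 250 bases before the start to 50 after it. Windows were available for 5 of the 8 members, and those of Ada, Entpd1 and Pde4d met this condition. The 250 bases before the start are printed in the direction of transcription, and capitals mark matches to TGACG, the core of the cyclic AMP response element, or to GGAAA, the core of the NFAT (nuclear factor of activated T cells) site, on either strand. They lie at chr2:163750240-163750489 (minus strand) for Ada, chr19:40659520-40659769 (plus strand) for Entpd1 and chr13:108653927-108654176 (plus strand) for Pde4d.
Ada: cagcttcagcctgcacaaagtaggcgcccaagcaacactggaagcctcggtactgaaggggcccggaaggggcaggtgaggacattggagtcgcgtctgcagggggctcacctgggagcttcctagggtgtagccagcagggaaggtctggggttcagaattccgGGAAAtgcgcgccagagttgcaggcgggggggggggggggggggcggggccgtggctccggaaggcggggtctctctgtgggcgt
Entpd1: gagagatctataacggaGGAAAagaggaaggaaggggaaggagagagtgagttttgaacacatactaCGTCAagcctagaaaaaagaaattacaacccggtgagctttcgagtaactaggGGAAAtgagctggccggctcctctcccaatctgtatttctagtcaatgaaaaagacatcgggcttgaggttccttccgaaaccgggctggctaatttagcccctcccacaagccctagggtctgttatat
Pde4d: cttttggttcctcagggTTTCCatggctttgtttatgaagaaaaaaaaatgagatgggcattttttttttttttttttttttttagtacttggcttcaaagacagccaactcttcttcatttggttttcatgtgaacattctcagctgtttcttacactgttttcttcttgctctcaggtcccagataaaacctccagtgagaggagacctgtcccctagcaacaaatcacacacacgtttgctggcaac
The Entpd1 window held the core TGACG, on the strand opposite to the gene, at position -183 from the start, and the Ada and Pde4d windows did not hold it. This core was present in 20.8% of all 32851 promoter windows. The NFAT core GGAAA was in all 3 sequences and in 61.3% of all windows, so its presence sets none of them apart. The complete element TGACGTCA, found in 1.79% of windows, and the AP-1 (activator protein 1) site TGANTCA, found in 7.81%, were in none of the 9 windows of the members. These are matches of letters and do not show that a factor binds.

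Adora2a was the only member that was higher in antigen-exposed than in naive cells, and its level in inflamed cells stood apart from that in the other exposed groups. The gene lies at chr10:75316877-75334792 on the plus strand (GRCm38.p6). It had 19.1, 20.2 and 25.1 CPM in the inflamed libraries, 74.1, 98.2 and 68.2 CPM in the tolerized, 72.8, 78.8 and 54.9 CPM in the activated and 10.6, 9.75 and 10.1 CPM in the naive libraries. Every inflamed library lay above every naive one and below every tolerized and activated one, while tolerized and activated libraries overlapped. Adora2a was higher than in naive cells by 1.0 ± 0.17 in inflamed cells (adjusted p = 0.000338), by 2.85 ± 0.17 in tolerized cells (adjusted p = 2.36e-07) and by 2.63 ± 0.17 in activated cells (adjusted p = 4.48e-07, limma). These 3 comparisons share the naive libraries.

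The inflamed level of Adora2a was lower than the tolerized one, with a log2 fold change of -1.84 ± 0.17 (95% interval -2.22 to -1.47, adjusted p = 0.000268, limma), which is a 3.59-fold difference on the scale of CPM + 1. Against activated cells the inflamed level was lower by a log2 fold change of -1.63 ± 0.17 (95% interval -2.0 to -1.25, adjusted p = 0.000762, limma), a 3.09-fold difference. Of all 12499 genes, 2.78% were called between inflamed and tolerized cells, 1.66% higher and 1.12% lower. Between inflamed and activated cells 1.92% were called, 1.54% higher and 0.384% lower. Adora2a was the 1 member of 8 called in each of these comparisons, and it was lower in both. Same-number inflamed and activated libraries deviated together in these data, though no label explains the numbers. With the number as a block in these 2 groups alone the change was again -1.63 but with an adjusted p of 0.0568 (limma). Inflamed and tolerized libraries of the same number did not deviate together. The block in those 2 groups gave -1.84 with an adjusted p of 0.0927 (limma), so that call was lost too. Tolerized and activated cells differed in Adora2a by 0.22 ± 0.17 (95% interval -0.16 to 0.59, adjusted p = 1, limma), and in that comparison 0% of the genes tested were called, with 531 genes at an unadjusted p under 0.05 and none called by limma-voom.

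Neutrophil transcripts were highest in the first and the second inflamed library, but not in the third. All 7 listed neutrophil markers were in the table and summed to 210, 97.4 and 11.5 CPM in inflamed, 1.86 to 10.5 CPM in tolerized, 1.12 to 12.9 CPM in activated and 15.1 to 20.8 CPM in naive libraries, with no marker at 0 throughout a group. The third inflamed library, with 11.5 CPM of these markers, had the highest Adora2a of its group at 25.1 CPM. The part of neutrophil RNA in the difference in Adora2a was not tested. Without the first inflamed library, and without any other single library, Adora2a was again called lower against both groups, with log2 fold changes from -1.95 to -1.69 against tolerized and from -1.78 to -1.52 against activated cells.

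**Figure D1:**
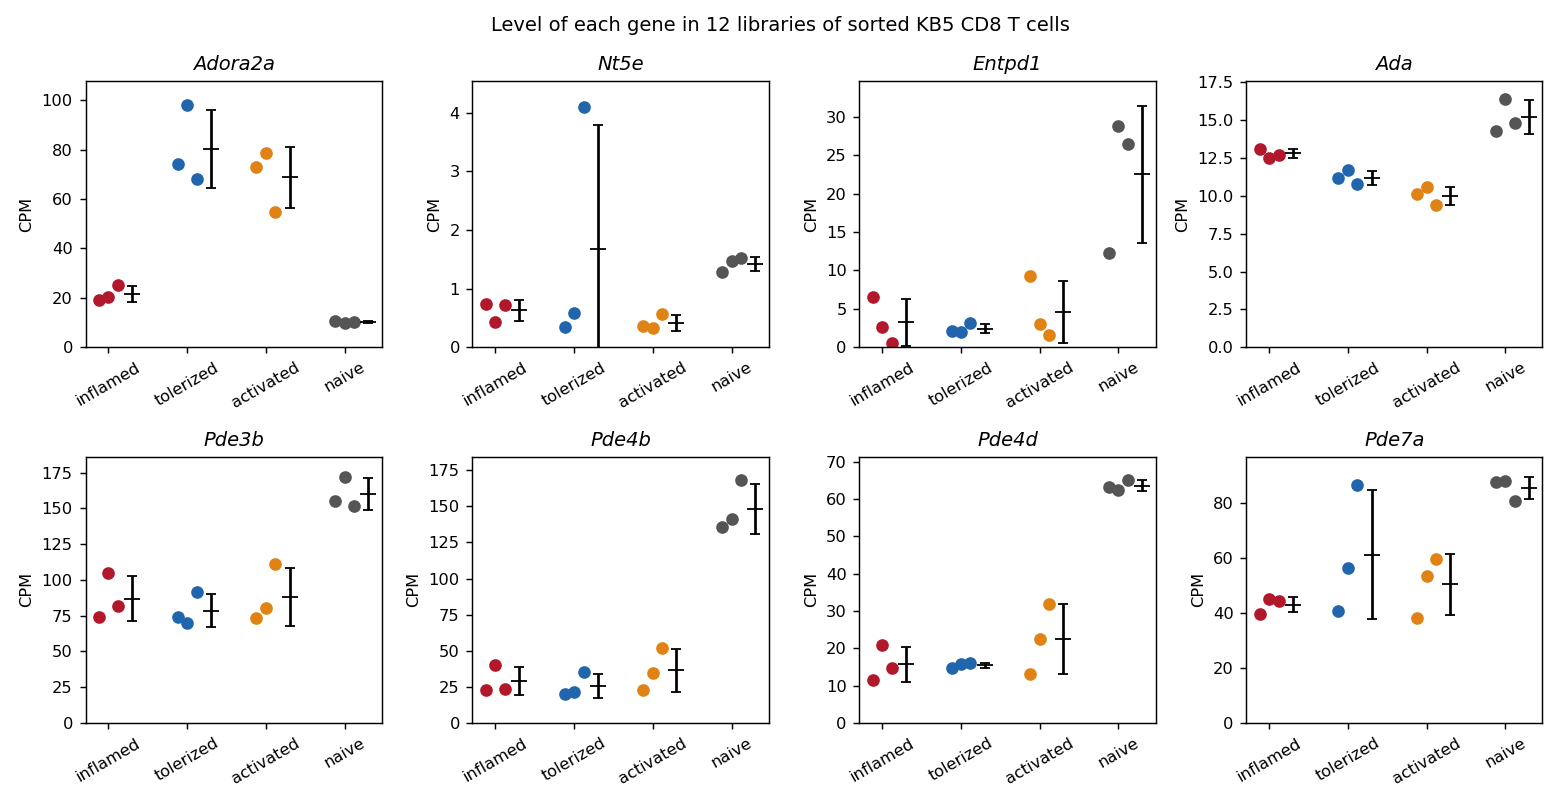
Level of each of the 8 genes in CPM (vertical axes, linear from 0, a scale for each panel) in the inflamed, tolerized, activated and naive groups. Coloured points are single libraries in order of replicate number, and the black mark to their right is the mean with its SD (n = 3), cut at 0 for tolerized Nt5e. Adora2a is highest in tolerized and activated libraries, at 54.9 CPM or more, and the 4 phosphodiesterases are highest in naive libraries.

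The other adenosine receptors gave almost no reads. Adora1 was at 0 in 10 of the 12 libraries and reached 0.398 CPM in the first inflamed library. Adora2b, the lower-affinity receptor that also raises cyclic AMP, had at most 0.306 CPM, and Adora3 at most 0.428 CPM, both in the same inflamed library. None of these 3 genes passed the filter on low counts, so Adora2a was the adenosine receptor gene with measurable reads in these cells.

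Entpd1, which encodes CD39 (chr19:40612366-40741602, plus strand), was lower in all 3 exposed groups. It had 6.54, 2.69 and 0.521 CPM in inflamed, 2.05, 2.03 and 3.09 CPM in tolerized, 9.22, 3.06 and 1.61 CPM in activated and 12.3, 28.8 and 26.5 CPM in naive libraries. No exposed library reached the lowest naive one, but within the inflamed, activated and naive groups the libraries differed widely. Against naive cells the change was -2.67 ± 0.60 in inflamed (adjusted p = 0.00221), -2.72 ± 0.60 in tolerized (adjusted p = 0.00198) and -2.22 ± 0.60 in activated cells (adjusted p = 0.00702, limma).

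Entpd1 moved with transcripts of macrophages, which also make CD39. All 10 listed macrophage markers were in the table and summed to 426, 148 and 11.1 CPM in inflamed, 122, 97.8 and 39.0 CPM in tolerized, 655, 155 and 52.4 CPM in activated and 685, 1725 and 1785 CPM in naive libraries. No macrophage marker was at 0 throughout a group. The library with the lowest macrophage sum, the third inflamed one, also had the lowest Entpd1, and the naive library with the lowest sum had the lowest Entpd1 of its group. In tolerized cells it was otherwise: the third library had the lowest sum, 39.0 CPM, and the highest Entpd1, 3.09 CPM. The 7 B cell markers, all in the table, summed to 82.5 to 125 CPM in inflamed, 75.3 to 161 CPM in tolerized, 95.6 to 113 CPM in activated and 323 to 417 CPM in naive libraries. The 7 dendritic cell markers, all in the table, summed to 19.0 to 50.9 CPM in inflamed, 23.7 to 75.8 CPM in tolerized, 26.2 to 63.9 CPM in activated and 114 to 199 CPM in naive libraries. Over the 12 libraries the genes whose level was most like that of Entpd1 were H2-Ab1 (r = 0.990), Pld4 (r = 0.989) and Cd74 (r = 0.988). H2-Ab1 and Cd74 encode parts of the MHC class II pathway of antigen-presenting cells. The part of these cells in the difference in Entpd1 was not tested, and in bulk RNA fewer cells of a type cannot be told apart from less RNA per cell.

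**Figure D2:**
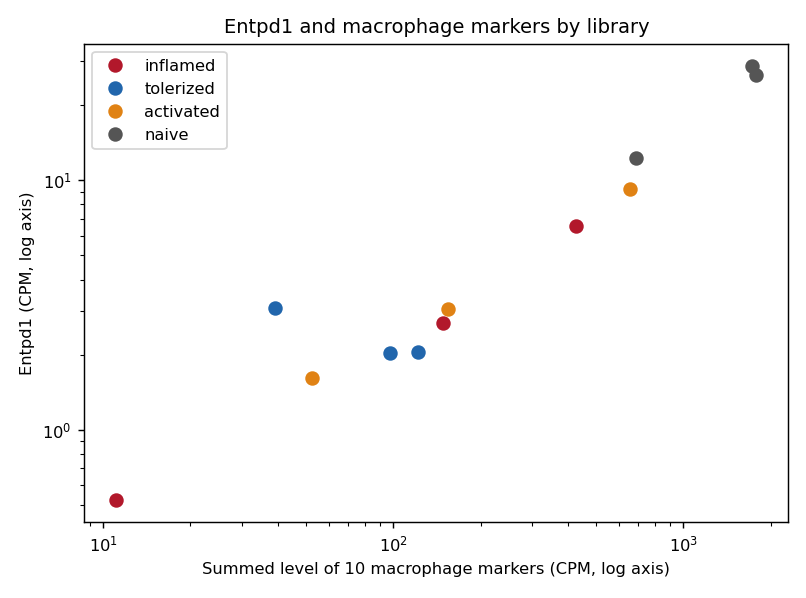
Entpd1 in CPM (vertical, log axis) against the summed CPM of 10 macrophage markers (horizontal, log axis), 1 point per library, coloured by group. The third inflamed library is at the lower left, at 0.521 and 11.1 CPM, and the second and the third naive library are at the upper right, while the third tolerized library has 3.09 CPM of Entpd1 beside only 39.0 CPM of the markers.

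Nt5e, which encodes CD73 (chr9:88327609-88372089, plus strand), was low in every group and was not called in any comparison. It had 0.734, 0.428 and 0.720 CPM in inflamed, 0.342, 0.580 and 4.10 CPM in tolerized, 0.360, 0.320 and 0.562 CPM in activated and 1.28, 1.47 and 1.52 CPM in naive libraries, from 9 to 141 reads per library. The third tolerized library stood above all 11 others, and every other exposed library was below every naive one. Against naive cells the values were -0.58 ± 0.39 in inflamed (adjusted p = 0.201), -0.13 ± 0.39 in tolerized (adjusted p = 0.774) and -0.78 ± 0.39 in activated cells (adjusted p = 0.0938, limma). That none of these was called rests on 1 library. Without the third tolerized library Nt5e was called lower in all 3 comparisons, at -0.58 in inflamed (adjusted p = 0.00216), -0.74 in tolerized (adjusted p = 0.00104) and -0.78 in activated cells (adjusted p = 0.000394, limma). Regulatory T cells also make CD73 and CD39, and their 3 listed markers summed to 34.4 to 44.7 CPM in inflamed, 55.6 to 77.5 CPM in tolerized, 45.1 to 61.2 CPM in activated and 44.2 to 53.6 CPM in naive libraries, with none at 0 throughout a group. The third tolerized library summed to 60.1 CPM. Foxp3 overlapped between all groups, for example at 49.9, 34.9 and 37.8 CPM in tolerized and 37.0, 48.4 and 36.6 CPM in naive libraries. Ikzf2 varied more, at 0.979, 1.81 and 2.56 CPM in inflamed, 5.17, 41.9 and 21.2 CPM in tolerized, 3.64, 22.0 and 15.9 CPM in activated and 5.24, 3.55 and 6.61 CPM in naive libraries.

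Ada (chr2:163726571-163750239, minus strand) differed little in size but was even within groups. It had 13.1, 12.5 and 12.7 CPM in inflamed, 11.2, 11.7 and 10.8 CPM in tolerized, 10.1, 10.6 and 9.39 CPM in activated and 14.3, 16.4 and 14.8 CPM in naive libraries. No group overlapped another: the naive libraries were highest, then the inflamed, the tolerized and the activated ones. Ada was lower than in naive cells by a log2 fold change of -0.40 ± 0.11 in tolerized (adjusted p = 0.00634) and -0.55 ± 0.11 in activated cells (adjusted p = 0.00111, limma). The inflamed value of -0.23 ± 0.11 was not called (adjusted p = 0.0801, limma), though it was with upper-quartile scaling (-0.42), with library size alone (-0.54) and with limma-voom (-0.27). Among the exposed groups the widest gap, inflamed over activated, was 0.32 ± 0.11 (95% interval 0.08 to 0.56, adjusted p = 0.264, limma) and was not called.

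All 4 phosphodiesterase genes were highest in naive cells. Pde4b (chr4:102087332-102607275, plus strand), whose enzyme is recruited to the stimulated T cell receptor, had the largest fall of the 4 in each exposed group. It had 23.1, 39.9 and 23.4 CPM in inflamed, 19.9, 21.4 and 35.4 CPM in tolerized, 22.7, 34.4 and 51.8 CPM in activated and 136, 141 and 168 CPM in naive libraries. The highest exposed library, the third activated one, was far below the lowest naive one. Its change against naive cells was -2.36 ± 0.31 in inflamed (adjusted p = 5.74e-05), -2.53 ± 0.31 in tolerized (adjusted p = 3.55e-05) and -2.07 ± 0.31 in activated cells (adjusted p = 0.000176, limma).

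Pde4d (chr13:108654177-109955969, plus strand), of the same cyclic AMP-specific family, had 11.6, 20.9 and 14.6 CPM in inflamed, 14.6, 15.7 and 16.0 CPM in tolerized, 13.1, 22.5 and 31.8 CPM in activated and 63.2, 62.3 and 65.2 CPM in naive libraries. Tolerized and naive libraries were even, and activated libraries were spread widely without reaching the naive level. Pde4d changed by -1.99 ± 0.27 in inflamed (adjusted p = 7.56e-05), -1.98 ± 0.27 in tolerized (adjusted p = 7.98e-05) and -1.54 ± 0.27 in activated cells (adjusted p = 0.000525, limma) against naive cells.

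Pde3b (chr7:114415222-114537938, plus strand), whose enzyme cyclic GMP inhibits, had 74.1, 105 and 82.0 CPM in inflamed, 74.0, 70.0 and 91.6 CPM in tolerized, 73.1, 80.0 and 111 CPM in activated and 155, 172 and 152 CPM in naive libraries. The exposed groups overlapped with each other and none reached the naive range. Against naive cells the change was -0.88 ± 0.17 in inflamed (adjusted p = 0.000866), -1.02 ± 0.17 in tolerized (adjusted p = 0.00033) and -0.87 ± 0.17 in activated cells (adjusted p = 0.00107, limma).

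Pde7a (chr3:19223108-19311322, minus strand), a cyclic AMP-specific enzyme of T cells, had 39.8, 45.0 and 44.3 CPM in inflamed, 40.7, 56.5 and 86.7 CPM in tolerized, 38.2, 53.6 and 59.7 CPM in activated and 87.8, 88.3 and 81.0 CPM in naive libraries. The third tolerized library lay within the naive range and the other 8 exposed libraries below it. Pde7a changed by -0.98 ± 0.23 in inflamed (adjusted p = 0.00317) and -0.77 ± 0.23 in activated cells (adjusted p = 0.0122, limma). In tolerized cells the value of -0.54 ± 0.23 was not called (adjusted p = 0.0562, limma). Both of the last calls depend on a library: without the first activated library the activated value was -0.56 (adjusted p = 0.063, limma), and without the third tolerized library the tolerized value was -0.82 (adjusted p = 0.00268, limma). Without the first activated library, which also enters the shared estimate of spread, the tolerized value was -0.53 (adjusted p = 0.0443, limma). The tolerized value was also called with median-of-ratios scaling (-0.59), upper-quartile scaling (-0.77) and library size alone (-0.85). With the replicate number as a block over all 12 libraries it was called as well (-0.54, adjusted p = 0.0297, limma). Pde7a shares 48 exon bases (0.620% of its exons) with the antisense gene Gm16093 in GENCODE M21, and how strand was treated in counting is not given in the sources used here.

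**Figure D3:**
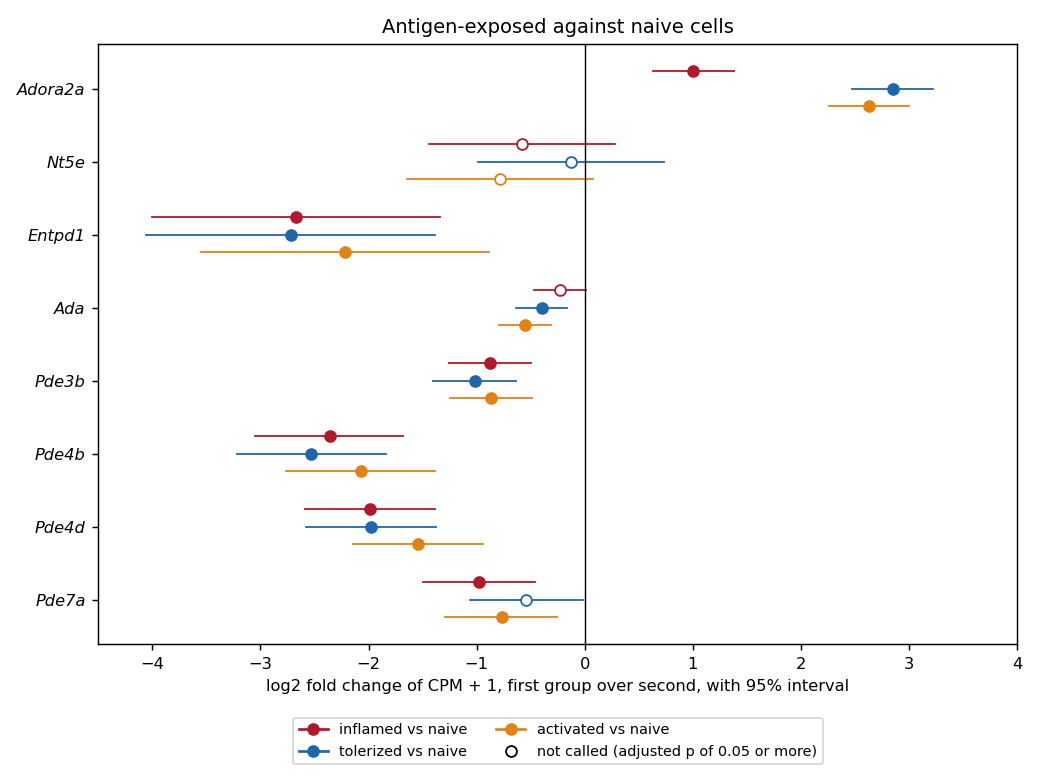
Log2 fold change of CPM + 1 (horizontal axis) of each gene in inflamed, tolerized and activated cells over naive cells, with 95% intervals as lines. Filled points were called at an adjusted p under 0.05 and open points were not. Adora2a alone lies to the right of 0, with the inflamed value of 1.0 well below 2.85 and 2.63, and the 3 values of each phosphodiesterase lie close together.

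Of the 8 genes, 1 was called higher and 5 lower in inflamed against naive cells, 1 higher and 5 lower in tolerized against naive cells and 1 higher and 6 lower in activated against naive cells. Change against naive was the rule for these cells. Of all genes tested, 72.4% were called in inflamed cells (36.9% higher, 35.5% lower), 73.3% in tolerized cells (37.4% higher, 35.9% lower) and 70.7% in activated cells (35.3% higher, 35.3% lower). The 6, 6 and 7 of 8 members called in either direction are thus near the share of all genes. The median change of the 8 genes was -0.93 in inflamed, -0.78 in tolerized and -0.83 in activated cells, against -0.01, -0.01 and -0.04 over all tested genes. The split of all calls depended on the scaling. The higher ones made up 51%, 51% and 50% of the calls in inflamed, tolerized and activated cells, and 38.6%, 39.6% and 39.1% with library size alone, which moved the median of all genes by -0.27, -0.24 and -0.22. No member called against naive cells changed sign under any of the 3 other scalings.

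None of the 7 members other than Adora2a was called between inflamed and tolerized, between inflamed and activated or between tolerized and activated cells. The intervals still allow sizeable differences for some of them. For Nt5e, tolerized over activated was 0.65 with a 95% interval of -0.21 to 1.51, with the third tolerized library far above the rest. For Entpd1 it was -0.51 with an interval of -1.84 to 0.82. For Pde4b, inflamed over activated was -0.29 with a 95% interval of -0.98 to 0.39, and for Pde3b it was -0.01 with an interval of -0.39 to 0.37. For Pde7a, inflamed over tolerized was -0.44, with an interval of -0.95 to 0.08 (adjusted p = 0.451, limma). The median over the 8 genes was 0.02 for inflamed over tolerized, -0.25 for inflamed over activated and 0.00 for tolerized over activated cells, and over all genes it was -0.01, -0.01 and 0.01.

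**Figure D4:**
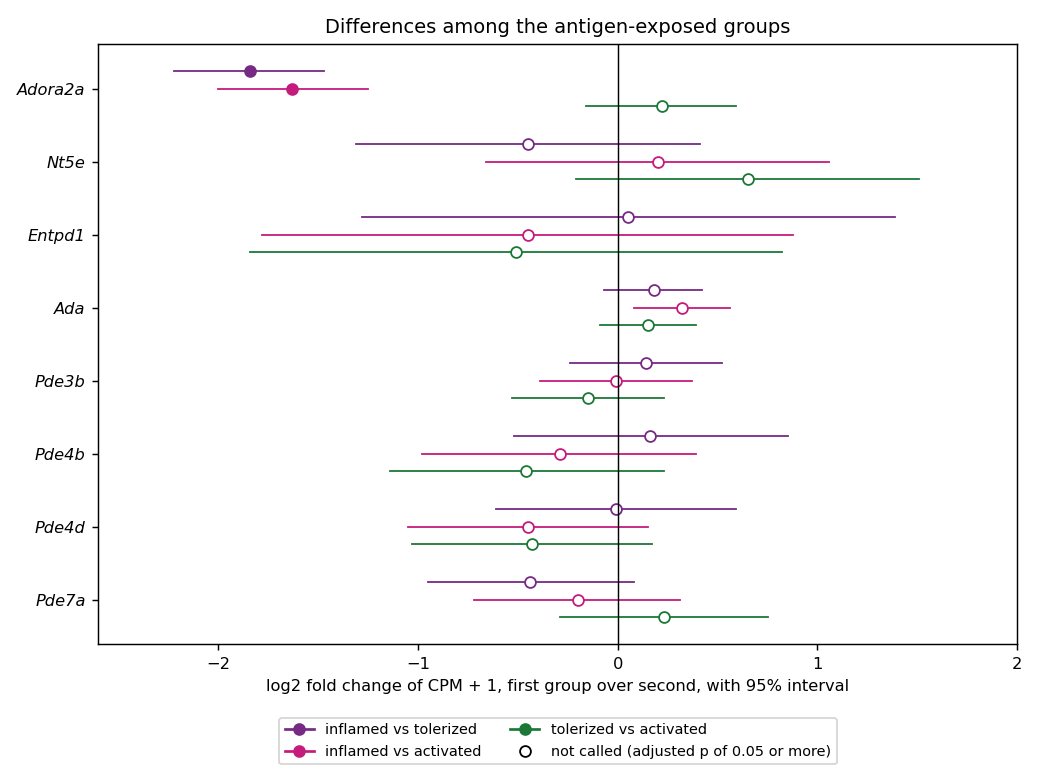
Log2 fold change of CPM + 1 (horizontal axis) of each gene between inflamed and tolerized, inflamed and activated, and tolerized and activated cells, first group over second, with 95% intervals. Both inflamed values of Adora2a, -1.84 and -1.63, are filled and lie left of 0, and every other point is open, which means not called.

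Divided by exon length, the order of the 8 genes differed between groups. In naive cells Pde4b (33.9 ± 3.92 CPM per kb, SD, n = 3), Pde3b (30.2 ± 2.08) and Pde7a (24.6 ± 1.17) stood at the top, the first 2 with overlapping libraries, and Adora2a was the seventh at 4.01 ± 0.167 CPM per kb. In inflamed cells Pde3b led at 16.4 ± 3.0 CPM per kb, followed by Pde7a at 12.3 ± 0.795, and Adora2a was the third at 8.48 ± 1.26, overlapping with Ada at 7.87 ± 0.186. In tolerized cells Adora2a was the highest at 31.6 ± 6.28 CPM per kb and did not overlap with Pde7a, the next at 17.6 ± 6.70. In activated cells it was again the highest, at 27.2 ± 4.90 CPM per kb, without overlap with Pde3b at 16.6 ± 3.81. Nt5e was the lowest in all 4 groups, at 0.116 to 0.468 CPM per kb on average.

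The 4 phosphodiesterases together gave 32.4 to 44.8 CPM per kb in inflamed, 32.3 to 52.5 in tolerized, 31.8 to 54.5 in activated and 94.5 to 99.6 CPM per kb in naive libraries. They made up 75.1% to 80.4% of the summed CPM per kb of all cyclic AMP phosphodiesterase genes listed, in every library of every group. Within groups they varied together: the deviations of the 12 libraries from their group means correlated at 0.55 to 0.90 between pairs of the 4 genes, as a description, since the genes share libraries and scaling. The third activated, the second inflamed and the third tolerized library were each the highest of their group for all 4. These libraries were likewise the highest of their groups for Adcy6, Adcy7, Rapgef4 and Akap8l, which also fell in every exposed group. The third tolerized library was also the highest of its group for Nt5e, at 4.10 CPM, and for Pde2a, at 19.5 CPM. Adcy7 had 31.8, 176 and 338 CPM in activated libraries, and Rapgef4 had 0.684, 6.87 and 17.4 CPM. Entpd1, lower too, was instead highest in the first activated and the first inflamed library. In tolerized cells, however, Entpd1 was also highest in the third library, at 3.09 CPM. The shared variation was thus not confined to the phosphodiesterases, and its source was not tested.

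The genes most like the members over the 12 libraries, among 7948 candidates, followed the same group differences and are named as a description only. For Adora2a they were Cd200 (r = 0.991), Wnt10b (r = 0.987) and Tsen15 (r = 0.978). For Pde4b they were Heatr7a, Smad7 and Ano6 (r = 0.993, 0.991 and 0.990), and for Pde4d they were Axin2, Insr and Krba1 (r = 0.995, 0.993 and 0.993). For Pde3b the closest were Acap2, Aak1 and Lipa (r = 0.986, 0.985 and 0.984), and for Pde7a Manba, Pqlc3 and Lsp1 (r = 0.988, 0.983 and 0.982). Ada (Pi4k2a, Mapk7 and Rps10, r = 0.891, 0.885 and 0.862) and Nt5e (Clic1, Cd48 and Cmtm7, r = 0.930, 0.910 and 0.906) had less close neighbours.

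The rest of the pathway was read from a list of 96 genes in 12 roles, of which 93 were in the table and 73 were tested. Of these 73, 20 were called higher and 39 lower in inflamed, 18 higher and 37 lower in tolerized and 19 higher and 41 lower in activated cells, each against naive cells. Their median change was -0.53, -0.52 and -0.45. Over all genes 36.9% were called higher and 35.5% lower in inflamed, 37.4% and 35.9% in tolerized and 35.3% and 35.3% in activated cells. Counts by role below stand beside the same shares. With this scaling lower calls outnumbered higher ones in the list, while over all genes they were about even. With library size alone the list had 17 higher and 45 lower, 15 and 45, and 16 and 46. Higher calls then made up 38.6%, 39.6% and 39.1% of those over all genes.

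The role listed as adenosine uptake and removal had the most genes tested, 13, and 7 of these were called higher in each exposed group. The role is broad and the 7 include Ahcy, whose enzyme forms adenosine, so the count does not measure removal alone. Of the same 13, 4 were lower in inflamed, 3 in tolerized and 4 in activated cells. Over all genes 36.9%, 37.4% and 35.3% were called higher and 35.5%, 35.9% and 35.3% lower in these groups. Adk, adenosine kinase, which turns adenosine into AMP inside the cell, averaged 91.0 ± 1.34 CPM in inflamed, 80.5 ± 9.53 in tolerized, 69.0 ± 10.2 in activated and 9.12 ± 1.0 CPM in naive cells (SD, n = 3). The nucleoside transporter gene Slc29a2 averaged 43.9 ± 6.95 CPM in inflamed, 43.1 ± 7.90 in tolerized, 40.2 ± 7.70 in activated and 3.27 ± 0.413 CPM in naive cells. Ahcy, whose enzyme splits S-adenosylhomocysteine into adenosine and homocysteine, rose by 2.25 in inflamed, 2.45 in tolerized and 2.27 in activated cells. Adk rose by 3.19, 3.01 and 2.78 and Slc29a2 by 3.39, 3.36 and 3.26 in the same order, and all 9 values were called. Adk and Ada, the pair of enzymes that remove adenosine, thus differed in direction in tolerized and activated cells, where Ada was called lower.

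Among the 5 ecto-nucleotidase genes tested beside Entpd1 and Nt5e, Alpl was the 1 called higher in each exposed group. Of the same 5, 2 were lower in inflamed, 4 in tolerized and 4 in activated cells. Over all genes 36.9%, 37.4% and 35.3% were called higher and 35.5%, 35.9% and 35.3% lower in these groups. Alpl, tissue-nonspecific alkaline phosphatase, which can also release adenosine from AMP, averaged 101 ± 11.4 CPM in inflamed, 110 ± 25.3 in tolerized, 94.1 ± 25.5 in activated and 8.92 ± 1.58 CPM in naive cells (SD, n = 3), and rose by 3.37, 3.47 and 3.24. Acpp, an acid phosphatase with the same activity on AMP, changed by -3.50, -3.08 and -2.77. Enpp1, which cuts ATP to AMP, was lower in tolerized (-1.87) and activated cells (-1.71), and its value in inflamed cells was -0.71 (adjusted p = 0.0908, limma). That value was called with upper-quartile scaling (-0.90), library size alone (-1.02), limma-voom (-0.74) and without the second inflamed library (-1.01).

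Among the other receptors that raise cyclic AMP, 7 were tested. Ptger2, a prostaglandin E2 receptor, averaged 4.20 ± 1.21 CPM in inflamed, 7.15 ± 2.11 in tolerized, 4.44 ± 1.01 in activated and 0.654 ± 0.168 CPM in naive cells (SD, n = 3) and rose by 1.63, 2.27 and 1.71. Vipr1, a receptor for vasoactive intestinal peptide, averaged 3.98 ± 1.79 CPM in inflamed, 6.26 ± 6.51 in tolerized, 5.16 ± 2.28 in activated and 26.6 ± 1.36 CPM in naive cells (SD, n = 3) and changed by -2.53, -2.29 and -2.23. Both genes were called in all 3 comparisons with naive cells and in none among the exposed groups.

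Gpr65, a proton-sensing receptor coupled to the stimulatory G protein, had 171, 138 and 160 CPM in inflamed, 87.7, 79.6 and 75.1 CPM in tolerized, 103, 87.2 and 97.4 CPM in activated and 65.3, 78.3 and 59.2 CPM in naive libraries. All 3 inflamed libraries lay above all others. It was higher in inflamed cells than in tolerized cells by 0.94 ± 0.12 (adjusted p = 0.00196) and than in activated cells by 0.70 ± 0.12 (adjusted p = 0.0136, limma). Crem, whose products include the cyclic AMP-inducible repressor ICER, had 17.0, 18.4 and 18.3 CPM in inflamed, 9.65, 6.85 and 7.74 CPM in tolerized, 10.6, 8.74 and 8.87 CPM in activated and 7.07, 6.74 and 5.22 CPM in naive libraries. The inflamed libraries again stood above the rest. Crem was higher in inflamed cells than in tolerized cells by 1.07 ± 0.16 (adjusted p = 0.00405) and than in activated cells by 0.86 ± 0.16 (adjusted p = 0.0175, limma).

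Between inflamed and activated cells, where same-number libraries deviated together, both calls were lost with the number as a block in the 2 groups. The adjusted p was then 0.0584 for Gpr65 and 0.136 for Crem (limma). Both were also lost with only the 2 groups in the fit, at 0.057 and 0.0563 (limma). The call for Gpr65 was also lost without the first inflamed (adjusted p = 0.074) or the second activated library (adjusted p = 0.0781). The call for Crem was lost without the first inflamed (adjusted p = 0.0569), the second inflamed (adjusted p = 0.0787), the second activated (adjusted p = 0.096) or the third activated library (adjusted p = 0.0583, limma). Between inflamed and tolerized cells same-number libraries did not deviate together. There too the block in the 2 groups ended both calls, at an adjusted p of 0.0897 for Gpr65 and 0.161 for Crem (limma). Gpr65 and Crem were the 2 of 73 pathway genes called between inflamed and tolerized cells and also the 2 called between inflamed and activated cells, and none was called between tolerized and activated cells. Both were higher in inflamed cells, whereas Adora2a was lower there.

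**Figure D5:**
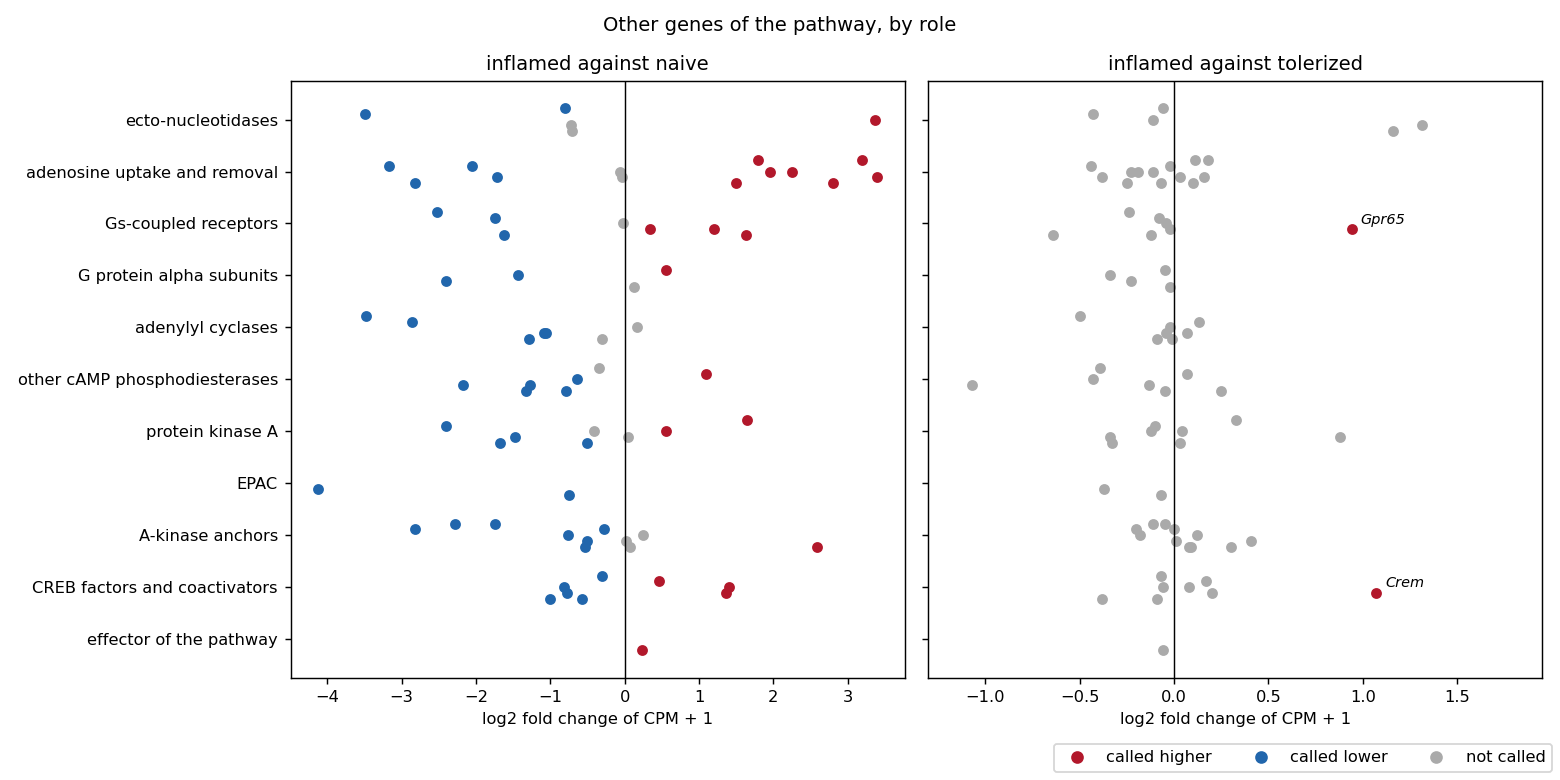
Log2 fold change of CPM + 1 (horizontal axes) of the 73 other pathway genes tested, in rows by role, for inflamed against naive cells (left) and inflamed against tolerized cells (right). Each point is a gene, red where called higher, blue where called lower and grey where not called, and small vertical offsets only keep points apart. On the left most roles hold calls of both directions, and on the right Gpr65 and Crem are the only coloured points.

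Adenylyl cyclases make cyclic AMP from ATP. Of their 7 genes tested, 5 were called lower and none higher in each exposed group. Among all genes tested, 35.5%, 35.9% and 35.3% were called lower in inflamed, tolerized and activated cells. The shares called higher were 36.9%, 37.4% and 35.3%. Adcy8 and Adcy9, both among the 5, were low, with at most 1.96 and 1.84 CPM in any library. Adcy3 averaged 30.2 ± 2.23 CPM in inflamed, 28.6 ± 1.74 in tolerized, 32.6 ± 3.80 in activated and 65.5 ± 6.42 CPM in naive cells (SD, n = 3). Adcy6 changed by -2.86, -2.99 and -2.39 in inflamed, tolerized and activated cells. Adcy7, the cyclase gene typical of blood cells, averaged 83.8 ± 61.6 CPM in inflamed, 128 ± 98.2 in tolerized, 182 ± 153 in activated and 809 ± 108 CPM in naive cells, and its call in activated cells was lost without the first activated library (-1.69, adjusted p = 0.0567, limma). Gnai2, an inhibitory G protein subunit, changed by -1.44, -1.10 and -1.31 in the same order, and Gnal, a stimulatory one, by -2.40, -2.17 and -1.94. Gnai3, also inhibitory, was higher by 0.55, 0.60 and 0.57. Gnas, stimulatory like Gnal, averaged 445 CPM in inflamed, 451 in tolerized, 410 in activated and 407 CPM in naive cells. Its changes of 0.13, 0.15 and 0.01 were not called, whereas Gnal averaged 96.3 CPM in naive cells.

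Of the 7 cyclic AMP phosphodiesterase genes tested beside the members, 1 was higher and 5 lower in inflamed, 1 higher and 3 lower in tolerized and 1 higher and 4 lower in activated cells. Over all genes 36.9%, 37.4% and 35.3% were called higher and 35.5%, 35.9% and 35.3% lower in these groups. Pde1b changed by -1.33, -1.58 and -1.41. Pde2a was lower in inflamed (-2.18) and activated cells (-1.95). In tolerized cells its value of -1.11 was not called (adjusted p = 0.0794), and without the third tolerized library it was -1.83 (adjusted p = 0.00087, limma). It was also called with upper-quartile scaling (-1.32), library size alone (-1.39) and limma-voom (-1.23). Pde8a was not called in any exposed group, with values of -0.34, 0.05 and -0.15, except that the inflamed value was called with library size alone (-0.61) and without the first naive library (-0.56).

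The targets of cyclic AMP changed in both directions. Of 8 protein kinase A genes tested, 2 were called higher in each group and 4, 4 and 5 lower in inflamed, tolerized and activated cells. Over all genes 36.9%, 37.4% and 35.3% were called higher and 35.5%, 35.9% and 35.3% lower. The regulatory subunit genes Prkar2a (1.65, 1.32 and 1.14) and Prkar1a (0.56, 0.52 and 0.46) rose in these groups, and Prkar1b fell (-2.40, -2.30 and -1.89). The catalytic subunit gene Prkacb averaged 107 CPM in inflamed, 136 in tolerized, 133 in activated and 299 CPM in naive cells. Prkaca, also catalytic, averaged 28.7, 36.7, 32.2 and 41.1 CPM in the same order. Both EPAC genes, whose products are exchange factors that cyclic AMP switches on, were lower in all 3 groups, and Rapgef4 averaged 3.01 ± 3.40 CPM in inflamed, 4.72 ± 5.60 in tolerized, 8.31 ± 8.44 in activated and 55.1 ± 6.50 CPM in naive cells (SD, n = 3). Of the anchoring proteins of protein kinase A, Akap1 rose by 2.59, 2.51 and 2.35, and Akap8l (-2.28, -2.17 and -1.89) and Akap12 (-2.82, -2.63 and -2.17) fell. Among the CREB family factors, Atf1 rose by 1.40, 1.32 and 1.17, and the coactivator gene Crtc3 changed by -1.0, -0.91 and -0.89. Csk, the kinase through which protein kinase A dampens antigen receptor signalling, was higher by 0.24 in inflamed and 0.30 in tolerized cells, but with library size alone these values turned to -0.09 and -0.01. In activated cells Csk was at 0.17 (adjusted p = 0.0625, limma) and was not called, but without the first tolerized, the third activated or any 1 inflamed library it was (0.19 to 0.20). It was also called with the replicate number as a block over all 12 libraries (0.17, adjusted p = 0.0367, limma).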

How the data were processed

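RNA of sorted KB5 CD8 T cells was read on a HiSeq machine of Illumina, per the protocols in the labels, whose extraction text also names embryonic fibroblasts. Per the submitters' processing notes TopHat2, bedtools and DESeq and the builds mm10 and GRCm38 were used, with no versions or roles. The authors deposited 1 table of read counts per gene and library as whole numbers with commas, not normalized; as text these could not be typed as counts, so a log-scale test replaced a count test. All sample columns were used. Among values of 1 to 20, 55.6% to 64.4% were even, against 49.3% to 50.8% of values over 1000, so a read pair may have been counted as 2, and reads are not independent molecules.

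From these counts CPM were computed with trimmed mean of M factors (0.897 to 1.22; 30% of M and 5% of A trimmed). Genes with at least 0.258 CPM (10 reads in the median library) in 3 libraries and 15 reads in all were tested on log2(CPM + 1) in 1 limma-trend fit of 12 libraries and 4 group means (R 4.3.3, limma 3.58.1), with Benjamini-Hochberg adjustment in each of 6 comparisons. The pseudocount of 1 shrinks changes of low genes. The procedure was tested on simulated reads. The 8 members, the 96 pathway genes and the 54 marker genes were chosen with earlier results of these data known. Named pathway genes were, per role, the 3 tested genes with the smallest adjusted p against naive cells and at least 5 CPM in the highest group, and any called among exposed groups. Gnas, Prkaca, Prkacb, Adcy8 and Adcy9 are given beside them and are not among the values recomputed under alternatives. Like genes were the 3 with the highest Pearson r of log2(CPM + 1) and a mean of at least 10 CPM, without predicted genes and receptor segments. Of the pathway list, Entpd8, Adcy2 and Pde1a were not found, and 1 further receptor gene is not reported here. Coordinates and promoters are from RefSeq GRCm38.p6.

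Same-number libraries deviated together between inflamed and activated (correlations 0.636, 0.225 and 0.146) and between tolerized and activated cells (0.602, 0.19 and 0.576), all over 0.1, and not in the other comparisons. This rests on the data, as no label explains the numbers. Alternatives left out each library in turn, added a replicate block, fitted only the 2 groups compared, used a pseudocount of 0.1 or 5, dropped the filter or set it at 5 CPM, used limma-voom, or scaled by median of ratios, upper quartile or library size.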

Additional observations from a re-analysis of the deposited data

How the results depend on the processing

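Of 1098 recomputed values for the 8 genes over 23 alternatives per comparison, 1079 kept their call and none called in the original fit changed sign. Over 10 uncalled differences, 22 values changed sign. The replicate block in the 2 groups alone left 0 genes and 0 members called between inflamed and tolerized cells (adjusted p 0.0927 for Adora2a, 0.0897 for Gpr65 and 0.161 for Crem) and 68 genes and 0 members between inflamed and activated cells, and moved no other count of genes or members called by over 1.5 times. A block over all 12 libraries called Pde7a in tolerized (adjusted p 0.0297) and Csk in activated cells (0.0367), each against naive cells. Between inflamed and tolerized cells replicate numbers did not pair the libraries (0.273, -0.0693 and -0.167). With only the 2 groups in the fit 158 genes were called between inflamed and tolerized and 101 between inflamed and activated cells. Leaving out single libraries gave 157 to 540 genes for inflamed against tolerized (179 without inflamed 1, 174 without inflamed 2, 540 without tolerized 1, 157 without tolerized 2), 107 to 328 for inflamed against activated (125 without inflamed 1, 121 without inflamed 2, 107 without activated 2) and 0 to 60 for tolerized against activated cells (60 without tolerized 1). Members called against naive cells ranged from 6 to 8. Of 3990 values for named pathway genes, 18 lost and 17 gained a call, and 2 reversed, both Csk with library size alone (-0.01 in tolerized, -0.09 in inflamed cells). The causes were not tested. Depth limits Nt5e most, at 9 to 141 reads per library.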
